A study of Mus musculus with 12 samples.

Results

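The comparison described here set thymus of XX mice with testes against thymus of XY mice with testes, so that the sex chromosome complement differed while gonadal sex was the same. Its members were chosen by their labels: 3 arrays of XXsry males and 3 arrays of XY-sry males, 6 of the 12 arrays in the series. All 6 mice were gonadal males labelled as carrying Sry, the Y-linked gene that starts testis formation, and were 7 to 8 weeks old. The minus sign in the name of the XY group marks the Y chromosome, and in this kind of cross it denotes a Y from which Sry was lost. The other 6 arrays came from XX females and XY- females of that age (3 each), which the labels do not mark as carrying Sry. They entered the estimate of the spread and give a complement comparison in mice with ovaries that shares no array with the males. The promoter, insertion site and number of lines of the added Sry, and the strain of the mice, were not given in the sources used here. According to the submitters the arrays of 1 group are biological replicates.

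The thymus is where T cells are made: precursors without CD4 or CD8 rearrange their receptor genes, pass through a stage with both co-receptors on cortical epithelium, and mature into single-positive cells. An XX cell silences most of 1 X chromosome through the RNA Xist. A small set of X-linked genes escapes this silencing, and several of these have a partner on the Y. The series asks whether the sex chromosomes alter autosomal genes, and among the escape genes are chromatin and translation factors that act on autosomes.

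Expression was read on Affymetrix mouse arrays as log2 values per probe set, a group of probes read together as 1 value. A probe set was tested when its mean over the 6 male arrays was at least 5, which left 17903 of 45101 on the array. Of these, 15267 named 1 autosomal gene each (9213 genes), 458 lay on X, 2 on Y and 2176 had no single gene with a known chromosome. Differences are XX males minus XY males on the log2 scale, with the standard error after the ± sign. A probe set passed the test at a limma p-value under 0.05 after Benjamini-Hochberg adjustment over all 17903. Thymus markers were high on all 6 arrays: the recombinase gene Rag1 lay between 11.80 and 11.96, the co-receptor gene Cd8a between 11.25 and 11.33, and Prss16, a protease of cortical epithelium, between 10.99 and 11.14. The median of all probe sets lay between 4.02 and 4.06 on the male arrays. The actin 3' minus 5' difference, which grows as RNA is degraded, was 0.71, 0.76 and 0.72 in XX males 1 to 3 and 0.83, 0.74 and 0.80 in XY males 1 to 3. XY female 2 stood apart from the other 11 arrays, with 0.51 and with the largest SD of its deviation from its group mean (0.145, against 0.072 to 0.122). Counts of probe sets that passed are given with and without it. The differences and means of the females are given only with it included.

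The sex chromosome genes separated the groups in every array. Xist read 7.83, 8.02 and 8.07 in the XX males and 2.64, 2.62 and 2.55 in the XY males, the lowest part of the array scale, so its difference of 5.37 ± 0.0923 is a lower bound (limma adjusted p = 6.99e-12). Eif2s3y, the Y-linked copy of a translation initiation subunit, read 2.18, 1.77 and 2.26 in XX males and 8.17, 7.95 and 7.83 in XY males (limma adjusted p = 4.81e-08). Kdm5d and Uty, Y-linked relatives of the demethylases below, lay under the filter on mean level. Kdm5d averaged 2.08 in XX males and 6.74 in XY males. Sry itself was read by 1 tested probe set at 6.95, 6.74 and 6.81 in XX males and 6.90, 6.84 and 7.20 in XY males. The groups overlapped for Sry, with a difference of -0.15 ± 0.113 (limma adjusted p = 0.850). That probe set also read 5.33, 5.39 and 5.34 in XX females and 5.23, 5.55 and 5.65 in XY females. Its values in males are therefore not a measure of Sry alone. The other Sry probe set lay under the filter, averaging 3.56 in XX males and 3.41 in XY males.

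Of the escape genes with a Y partner, Eif2s3x, Kdm6a and Kdm5c were higher in XX males, and Usp9x was not. Eif2s3x, the X-linked copy of the initiation subunit, read 8.52, 8.44 and 8.50 in XX males against 7.84, 7.93 and 7.82 in XY males. It rose by 0.62 ± 0.0529 (limma adjusted p = 0.000206), and its other probe sets by 0.52 and 0.53. Kdm6a, a demethylase that removes a Polycomb mark from histone H3, read 7.76, 7.82 and 7.87 against 7.16, 6.97 and 6.99. It rose by 0.78 ± 0.0665 (limma adjusted p = 0.000206), with its other tested probe set at 0.64. Kdm5c, a demethylase of an active promoter mark, read 6.98, 6.89 and 7.04 against 6.43, 6.39 and 6.53. It rose by 0.52 ± 0.0612 (limma adjusted p = 0.00399), and its other probe sets, which did not pass, differed by 0.35, 0.32 and 0.24. Of 458 tested X-linked probe sets 8 passed (1.75%): 2 of Xist, 3 of Eif2s3x, 2 of Kdm6a and 1 of Kdm5c, all higher in XX males. Of the 13 tested genes in the list of escape genes, read at 1 probe set each, 3 passed. The probe sets of Xist, Eif2s3y, Eif2s3x, Kdm6a and Kdm5c named here with an adjusted p passed in every alternative run on them, each array left out in turn among these. Ddx3x, an RNA helicase gene that also has a Y partner, read 10.73, 10.90 and 10.91 against 10.46, 10.59 and 10.40 without overlap, and did not pass (0.36 ± 0.0643, limma adjusted p = 0.0691). The helicase gene's other probe sets differed by 0.26 and -0.07. Usp9x, a deubiquitinase gene with a Y partner, had 5 tested probe sets, which differed by -0.08 to 0.04 and overlapped between the groups. Pbdc1, also listed as an escape gene, differed by 0.31 (limma adjusted p = 0.134). The remaining listed escape genes that were tested did not pass either. They were 5530601H04Rik (0.35), Bgn (0.12), Ftx (0.12), Utp14a (0.11), Syap1 (0.06) and Mid1 (-0.15). Erdr1, listed as pseudoautosomal, differed by 0.19 (limma adjusted p = 0.770). Across the 266 X-linked genes tested, 1 probe set per gene, the median difference was -0.02, and over the 9213 autosomal genes it was also -0.02.

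Autosomal genes that passed were few and all were higher in XX males. Of 15267 autosomal probe sets 8 passed (0.0524%), for the genes Slc25a30, Trio, Nlk, Palld, Atp8a1, H2-T24, Cd28 and Plpp3, and 0 were lower. They differed by 0.37 to 0.72. At an unadjusted limma p under 0.05 there were 1166 (7.64%), 561 higher (3.67%) and 605 lower (3.96%). For 95.6% of autosomal probe sets the 95% interval of the difference lay within 0.5 of zero, and the median standard error was 0.0763. The count of 8 moved with single arrays. It was 4, 5 and 0 without XX males 1, 2 and 3, and 1, 101 and 1 without XY males 1, 2 and 3. Leaving out female arrays, which changes only the estimate of the spread, gave 2, 2 and 3 without XX females 1, 2 and 3, and 2, 115 and 10 without XY females 1, 2 and 3. Of the 115 autosomal probe sets, 99 were higher and 16 lower in XX males, and of the 101 without XY male 2, 74 were higher and 27 lower.

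Slc25a30 encodes a carrier of the inner mitochondrial membrane and lies on chromosome 14. Its probe set 1450018_s_at read 6.17, 6.08 and 6.35 in XX males and 5.54, 5.60 and 5.30 in XY males, and every XX male lay above every XY male. It rose by 0.72 ± 0.0925 (limma adjusted p = 0.00845). The 2 other tested probe sets of Slc25a30 differed by 0.46 and 0.48 and did not pass (limma adjusted p = 0.131 and 0.265). Without XX male 3 the adjusted p was 0.0566, and it passed without any other single array.

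Trio, on chromosome 15, encodes a guanine nucleotide exchange factor. Its probe set 1433745_at read 6.75, 6.69 and 6.91 in XX males and 6.21, 6.30 and 6.06 in XY males, without overlap. It rose by 0.59 ± 0.0782 (limma adjusted p = 0.0100), while the other tested probe set differed by 0.07. The call was lost without XX male 3, XY male 1 or XY male 3 (limma adjusted p = 0.0683, 0.0559 and 0.0597).

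Nlk, on chromosome 11, encodes a kinase that modulates Wnt signalling. Its probe set 1419112_at read 7.20, 7.25 and 7.41 in XX males and 6.80, 6.96 and 6.75 in XY males, again without overlap. It rose by 0.45 ± 0.0678 (limma adjusted p = 0.0341), and its other tested probe sets differed by -0.04 and -0.11. The promoters of these 3 genes are shown because they are the autosomal genes with the smallest p-values and moved in the same direction. Each is the 250 bases before the first listed base of the transcript, 5' to 3' on the gene's strand, from RefSeq on GRCm38.p6, at chr14:75787038-75787287 for Slc25a30, chr15:28025849-28026098 for Trio and chr11:78697426-78697675 for Nlk, all on the minus strand. Capitals mark matches, on either strand, to CCAAT, which nuclear factor Y is known to bind. They also mark matches on either strand to GGGCGG, the core letters of a binding site of Sp1. The letters TATAAA of the TATA box were searched in the same way.
Slc25a30: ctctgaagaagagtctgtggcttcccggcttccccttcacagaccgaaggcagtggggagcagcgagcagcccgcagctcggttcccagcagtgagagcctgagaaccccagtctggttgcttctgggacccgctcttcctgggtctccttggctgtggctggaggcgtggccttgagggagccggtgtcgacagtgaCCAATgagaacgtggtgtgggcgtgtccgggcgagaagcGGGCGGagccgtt
Trio: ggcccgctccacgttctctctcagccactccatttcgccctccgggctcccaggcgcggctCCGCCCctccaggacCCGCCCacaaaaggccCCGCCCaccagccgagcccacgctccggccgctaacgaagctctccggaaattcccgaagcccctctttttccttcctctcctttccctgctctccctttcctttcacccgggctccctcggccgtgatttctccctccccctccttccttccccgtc
Nlk: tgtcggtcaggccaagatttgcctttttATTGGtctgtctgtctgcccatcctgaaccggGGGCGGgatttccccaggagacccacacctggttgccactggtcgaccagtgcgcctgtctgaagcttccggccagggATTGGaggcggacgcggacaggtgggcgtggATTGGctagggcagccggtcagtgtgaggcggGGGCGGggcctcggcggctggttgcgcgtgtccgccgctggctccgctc

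These windows held 1 CCAAT match for Slc25a30, 0 for Trio and 3 for Nlk. GGGCGG matched 1, 3 and 2 times in the same order, and TATAAA matched 0 times in each. Across all 32851 RefSeq windows of that length, CCAAT occurred in 33.8%, GGGCGG in 32.7% and TATAAA in 12.4%. The E-box letters CACGTG, held by 6.02% of all windows, matched 0 times in these 3. The letters TGTGGT of a RUNX site, held by 14.0% of all windows on either strand, also matched 0 times. The counts of CG pairs were 16, 20 and 20, where the median of all windows was 6 and the upper quartile 16. Of the other 5 genes, Atp8a1 had 4 GGGCGG matches and 25 CG pairs and Plpp3 had 0 and 6, while Palld has 3 listed starts and was not scanned. The matches describe the letters only.

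Cd28, on chromosome 1, encodes the co-stimulatory receptor of T cells. Its probe set 1417597_at read 10.00, 10.05 and 10.16 in XX males and 9.52, 9.78 and 9.60 in XY males, without overlap. Cd28 rose by 0.44 ± 0.0698 (limma adjusted p = 0.0431), while its other tested probe set differed by -0.06. H2-T24, a class Ib major histocompatibility gene on chromosome 17 with no other probe set, read 6.05, 5.88 and 6.01 against 5.57, 5.64 and 5.59, and rose by 0.38 ± 0.0598 (limma adjusted p = 0.0396).

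Palld, Atp8a1 and Plpp3 completed the list. Palld, on chromosome 8, encodes an actin scaffold protein, and 1427228_at read 7.01, 6.83 and 7.00 in XX males against 6.39, 6.56 and 6.39 in XY males. Atp8a1, on chromosome 5, encodes a flippase that moves phospholipids to the inner membrane leaflet, and 1423597_at read 6.59, 6.50 and 6.61 against 6.20, 6.15 and 6.25. Plpp3, on chromosome 4, encodes a lipid phosphatase of the cell surface, and 1448908_at read 6.68, 6.61 and 6.61 against 6.13, 6.25 and 6.32. The groups did not overlap for any of them. The differences were 0.50 ± 0.0762, 0.37 ± 0.0576 and 0.40 ± 0.0642 in that order (limma adjusted p = 0.0354, 0.0396 and 0.0431). The other tested probe set of Palld differed by 0.01, that of Plpp3 by 0.06, and the 4 others of Atp8a1 by -0.10 to 0.00.

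The 6 genes other than Slc25a30 and Trio lost the call in most fits with 1 array left out: Nlk, Palld and H2-T24 passed in 4 of 12, Atp8a1 and Plpp3 in 3 of 12 and Cd28 in 2 of 12. They passed in common only without XY male 2 or XY female 2. Without XX male 3 none of the 8 called genes passed, with limma adjusted p-values from 0.0566 to 0.25. When the actin difference was added to the model, Slc25a30, Trio and Atp8a1 passed (limma adjusted p = 0.0166, 0.0293 and 0.0315) and the other 5 had limma adjusted p-values of 0.0624 to 0.0823. The differences of these 5 were about as large in that model: 0.43 for Nlk, 0.49 for Palld, 0.39 for H2-T24, 0.40 for Cd28 and 0.41 for Plpp3. In the fit with only the 6 male arrays, Slc25a30, Trio and Palld passed (limma adjusted p = 0.0384, 0.0415 and 0.0478). Nlk, Atp8a1, H2-T24, Cd28 and Plpp3 did not, with limma adjusted p-values of 0.0544 to 0.0782.

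**Figure D1:**
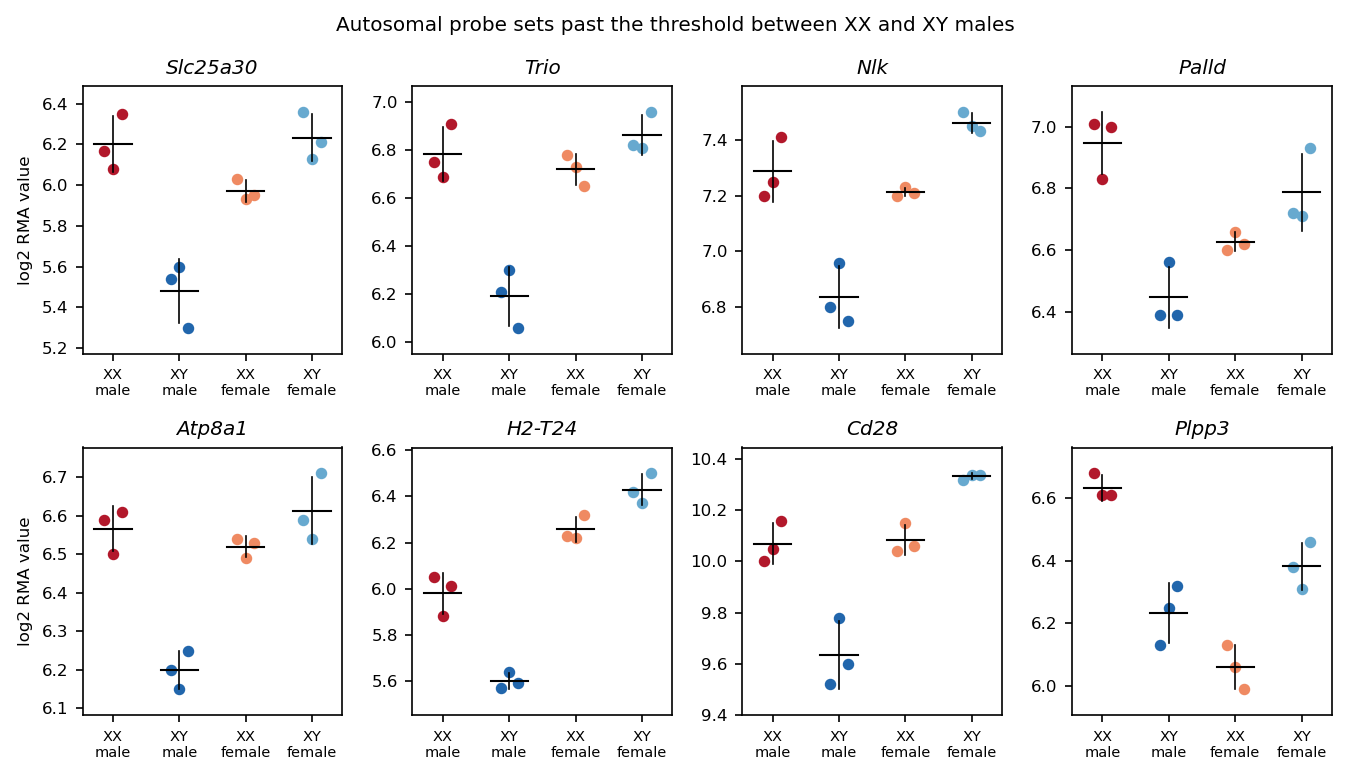
Log2 RMA value (vertical axis) of the 8 autosomal probe sets that passed between XX and XY males, in the 4 groups of 3 arrays. Points are arrays, horizontal lines group means and vertical lines 1 SD; axes do not start at 0. In each panel the 3 XX males lie above the 3 XY males, and the mean of the XX females lies below that of the XY females.

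Just outside the threshold, again on the higher side, lay Scfd1, Zbtb20 and Cd44. Scfd1, which takes part in vesicle transport between the endoplasmic reticulum and the Golgi, read 5.73 in each XX male and 4.16, 4.92 and 4.64 in XY males (1.16 ± 0.195, limma adjusted p = 0.0549), and its other probe set differed by 0.01. Zbtb20, a zinc finger repressor, read 5.91, 5.75 and 5.66 against 5.02, 5.37 and 5.25 (0.56 ± 0.0951, limma adjusted p = 0.0575). All 8 tested probe sets of Zbtb20 lay above 0, from 0.02 to 0.56. Cd44, an adhesion receptor of early precursors and activated T cells, read 5.63, 5.50 and 5.67 against 4.91, 5.03 and 5.18 (0.56 ± 0.098, limma adjusted p = 0.0691), with its other probe sets at 0.37 and 0.06. The groups did not overlap in any of the 3 probe sets named.

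No autosomal gene passed as lower in XX males, and the smallest p on that side belonged to Lmnb1. It encodes lamin B1, a filament protein of the nuclear envelope, on chromosome 18. Lmnb1 read 7.68, 7.82 and 7.79 in XX males and 8.21, 8.19 and 8.30 in XY males, without overlap (-0.47 ± 0.0909, limma adjusted p = 0.0917). Its other tested probe set also separated the groups, at -0.37. With only the 6 male arrays in the fit, the first Lmnb1 probe set passed (limma adjusted p = 0.0331). Across all 25 alternatives run on that probe set it passed in 5, and its limma adjusted p reached 0.341. Next by p came an immunoglobulin light chain segment (-0.48), Swi5, a recombination factor gene (-0.48), and Pus3, a pseudouridine synthase gene (-0.36). The limma adjusted p-value was 0.0947 for the first pair and 0.1 for Pus3. The other tested probe set of Pus3 differed by less than 0.01. Cipc, an inhibitor of the circadian CLOCK protein, was at -0.24 (limma adjusted p = 0.110), and all 3 of its probe sets separated the groups downwards. Ppm1b, Mbd4, Git2, Slc38a2 and Zfyve27 followed at -0.24, -0.32, -0.32, -0.25 and -0.29 and did not pass. The other probe sets of Git2 differed by 0.37, higher in XX males without overlap, 0.27 and -0.05. Those of Ppm1b differed by 0.02 and -0.01, and those of Mbd4 by -0.09 and -0.07. The other probe set of Slc38a2 was at -0.06 and that of Zfyve27 at -0.21.

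Autosomal differences of 0.5 or more were mostly on the higher side, while 43.1% of all autosomal probe sets lay above 0. At 0.5 or more, 129 autosomal probe sets were higher and 12 lower in XX males. After median centring the split was 118 and 15, and after quantile normalization 127 and 11. At 1 or more, 12 were higher and 0 lower. Among those with 0.5 or more, the arrays of the groups did not overlap for 119 higher and 6 lower. In all autosomal probe sets, whatever the size of the difference, the groups did not overlap for 882 higher (5.78%) and 1152 lower (7.55%).

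The largest autosomal difference was in Pdpk1, the kinase that activates Akt. It read 6.93, 7.05 and 6.92 in XX males and 4.95, 6.35 and 5.10 in XY males, so XY male 2 lay nearer to the XX males than the other XY males did. The difference was 1.50 ± 0.28 and did not pass (limma adjusted p = 0.0836), and the other probe set of Pdpk1 differed by -0.07. Sox4, a transcription factor of early lymphoid cells, read 7.25, 7.53 and 7.40 against 5.83, 6.81 and 5.84 (1.23 ± 0.287, limma adjusted p = 0.144). For Sox4, too, XY male 2 was the highest XY male. Of its 5 probe sets 4 were higher in XX males without overlap (0.31 to 1.23) and the most intense was at -0.09. Maco1, which encodes a membrane protein, read 6.40, 6.97 and 6.61 against 4.81, 5.86 and 5.78 (1.18 ± 0.263, limma adjusted p = 0.131), with its other probe sets at -0.07 and -0.03. In these probe sets of Pdpk1, Sox4 and Maco1 the array numbered 2 was highest, or level with the highest, in each male and female group. Ighg3, an immunoglobulin heavy chain constant gene, read 9.39, 5.33 and 7.27 against 5.55, 6.73 and 5.30, so its difference of 1.47 ± 0.868 did not exceed the spread (limma adjusted p = 0.737).

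On the lower side the largest differences were those of Taf15, Arglu1, a light chain segment, S100a9 and S100a8. Taf15, an RNA-binding protein gene, read 5.90, 5.71 and 6.11 in XX males and 6.85, 6.24 and 6.84 in XY males (-0.74 ± 0.183, limma adjusted p = 0.173). Arglu1, a splicing and transcription cofactor, read 8.66, 8.37 and 8.48 against 9.34, 8.81 and 9.36 (-0.67 ± 0.153, limma adjusted p = 0.137). The groups did not overlap for either, and XY male 2 was again the XY male nearest to the XX males. The other Arglu1 probe set differed by 0.07. S100a8, a neutrophil protein gene, read 5.93, 5.60 and 7.44 against 7.50, 7.28 and 6.06 and overlapped (-0.62 ± 0.54, limma adjusted p = 0.878). Its partner S100a9 (-0.64) and the light chain segment (-0.65) did not pass either.

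Probe sets of 1 gene often differed from each other. The 119 higher probe sets with a difference of 0.5 or more and no overlap stood for 106 genes, whose median difference, taken at the probe set with the smallest p, was 0.69. For 99 of these genes there were 215 other tested probe sets, and their median difference was -0.01, with 103 of 215 above 0. Slc25a30, Sox4 and Zbtb20 were among those with more than 1 probe set high. On the lower side, the 6 genes had a median of -0.57, and the 7 other probe sets of 3 of them had a median of 0.06. The probe sets were chosen by their male difference, so these medians are a description. Which transcript each probe set reads was not tested.

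**Figure D2:**
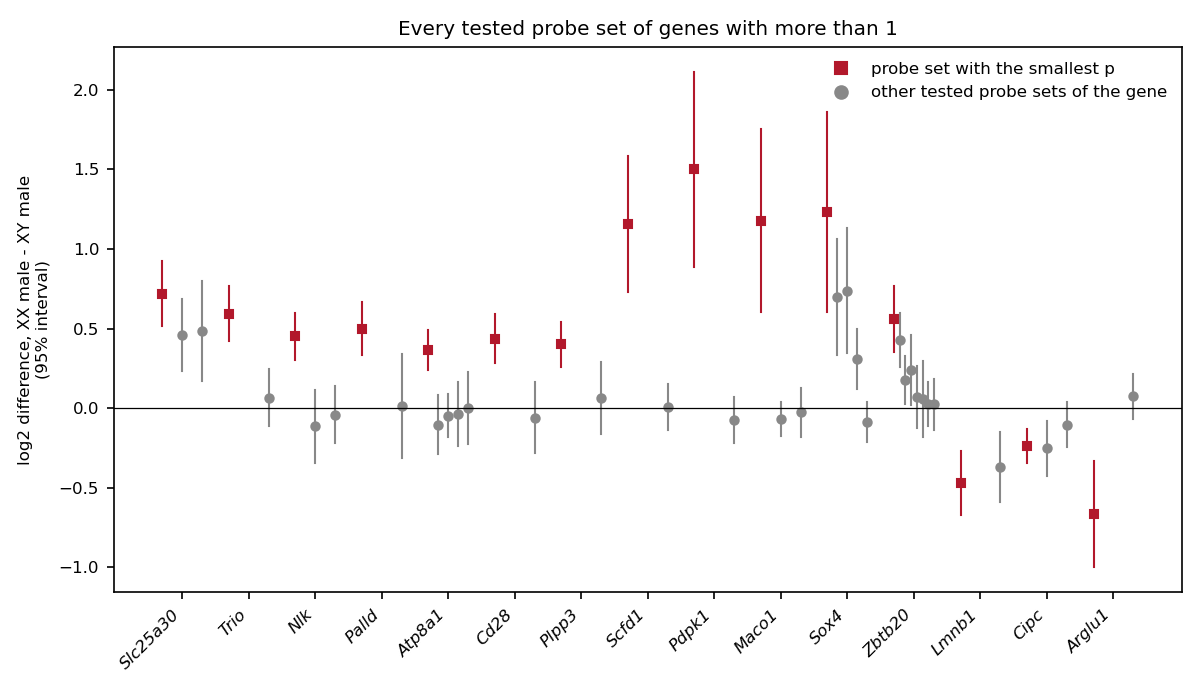
Log2 difference, XX male minus XY male, of every tested probe set of 15 genes named in the text. Red squares are the probe set with the smallest p, grey circles the gene's other tested probe sets, and vertical lines 95% intervals. The grey circles of Trio, Nlk, Palld, Atp8a1, Cd28, Plpp3, Scfd1, Pdpk1, Maco1 and Arglu1 lie near 0, while those of Slc25a30, Lmnb1, Cipc and most of Sox4 lie on the side of the red square.

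The complement difference in females was measured on 6 other arrays, and it ran the opposite way for nearly all of the autosomal probe sets that were high in XX males. Among the 8 that passed in males, the XX minus XY difference in females was between -0.32 and -0.09. In females all 8 were below 0, and 0 passed after adjustment. Of the 106 genes above, 105 had the opposite sign in females, with a median of -0.53, where 59.2% of all autosomal probe sets had opposite signs. Of the 6 genes on the lower side 5 had the opposite sign, with a median of 0.53. Slc25a30 had group means of 6.20 in XX males, 5.48 in XY males, 5.97 in XX females and 6.23 in XY females. For Cd28 these were 10.07, 9.63, 10.08 and 10.33. For Lmnb1 they were 7.76, 8.23, 8.24 and 7.77, so XX males and XY females were the low groups. The actin 3' minus 5' difference was 0.76, 0.66 and 0.77 in XX females and 0.69, 0.51 and 0.68 in XY females, so XY males had the highest mean of the 4 groups and XY females the lowest. The escape genes kept their direction in females: Eif2s3x differed by 0.69, Kdm6a by 0.44 and Kdm5c by 0.47, whereas Ddx3x was at -0.14.

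**Figure D3:**
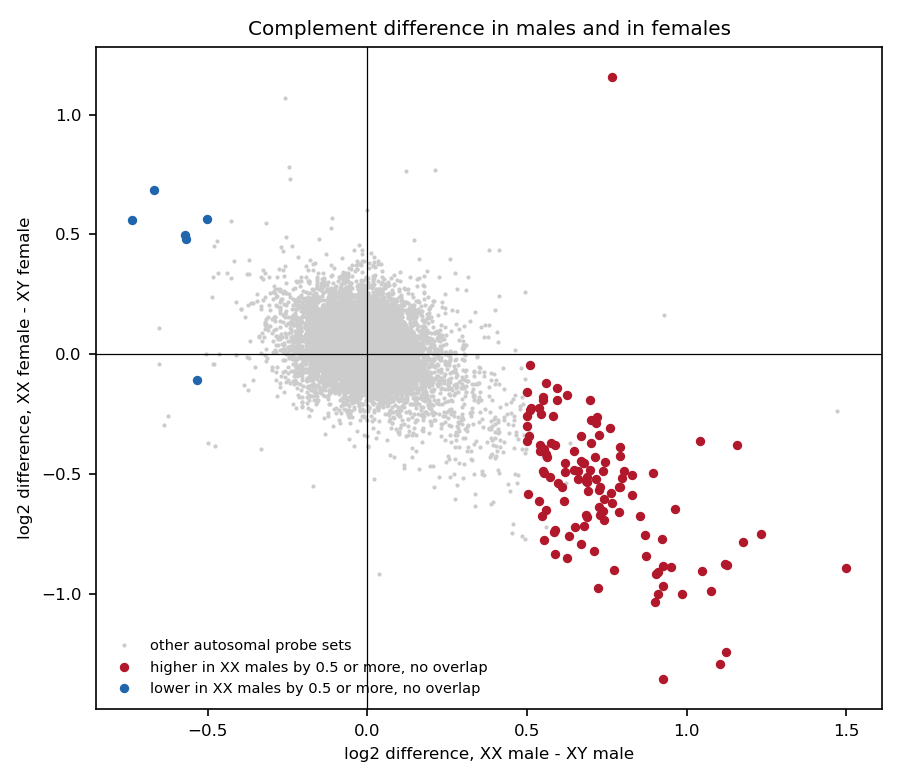
Log2 difference between XX and XY in males (horizontal) and in females (vertical) for the autosomal probe sets tested. Red points are higher and blue points lower in XX males by 0.5 or more with no overlap, grey points all others. Nearly all red points lie below 0 in females, and 5 of the 6 blue points above 0.

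Whether the complement difference itself differed between males and females was tested as an interaction, the male difference minus the female one. It passed for 207 of 17903 probe sets (1.16%), 164 higher and 43 lower, of which 158 were autosomal (1.03%), 121 higher and 37 lower. At an unadjusted limma p under 0.05 there were 2359. All 8 called autosomal genes passed, from 0.46 for Atp8a1 to 0.98 for Slc25a30, though the interaction contains the male difference by which they were chosen. Lmnb1 was at -0.94 (limma adjusted p = 0.0221). When the actin 3' minus 5' difference was added to the model, 1 probe set passed the interaction. The actin difference itself followed the groups, with the highest mean in XY males and the lowest in XY females. That fit therefore cannot tell RNA quality from the interaction. The count of 207 was 0, 24 and 8 without XX females 1, 2 and 3, and 69, 205 and 397 without XY females 1, 2 and 3. It was 89, 0 and 0 without XX males 1, 2 and 3, and 1, 368 and 0 without XY males 1, 2 and 3.

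Gene programmes were described by lists, with 1 probe set per gene, the one with the highest mean. Over the 9213 autosomal genes 3 passed (0.0326%), the groups did not overlap for 386 higher (4.19%) and 684 lower (7.42%), and the median was -0.02. These shares are the background for the counts of every autosomal list below. In none of the autosomal lists did a member pass at the probe set used for it there. A gene called at another probe set can still be a member, as Slc25a30 was among the mitochondrial carriers. In bulk tissue, fewer cells of a type and less RNA per cell cannot be told apart.

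Thymocyte stage genes had medians within 0.05 of zero. Of 19 genes of double-positive thymocytes, 1 was higher and 4 were lower without overlap, and the median was -0.03. The most abundant were Satb1 (-0.03), Rag1 (-0.04) and Dntt (-0.03), and the lower ones were Bcl2l1, a survival gene of this stage (-0.18), Rag2 (-0.11), Cd24a (-0.10) and Zap70 (-0.07). Of 12 genes of double-negative thymocytes the median was 0.04, and Bcl11b, a T lineage commitment factor, was higher without overlap at 0.21 (limma adjusted p = 0.560). Of 21 genes of mature single-positive thymocytes 3 were higher without overlap and 0 lower, with a median of 0.04 that became 0.00 without XY male 2. These were Ms4a4b (0.26), Klf2, which drives exit from the thymus (0.15), and Lef1 (0.06), and the receptor gene Ccr9 (0.06) and Cd5 (-0.05) were among the most abundant. The summed level of the single-positive genes ranged from -0.01 to 0.04 around its mean in XX males and from -0.07 to 0.01 in XY males, which overlap.

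Partners of the sex-linked regulators were read as lists as well. Of 13 genes of the eIF2 and eIF2B initiation complexes 0 were higher and 4 lower without overlap, with a median of -0.02, and the most abundant were Eif2s2 (0.06), Eif5 (-0.02) and Eif2b2 (-0.06). Of 14 partners and relatives of the KMT2C/D complex, to which Kdm6a belongs, 0 were higher and 2 lower, with a median of -0.04. Kmt2d, the methyltransferase of that complex, was at -0.31 with overlapping groups (limma adjusted p = 0.461). Of 21 Polycomb genes 0 were higher and 1, Phc1 (-0.12), lower, with a median of -0.02. Of 24 heterochromatin and DNA methylation genes 0 were higher and 2 lower, with a median of -0.06, the most abundant being Lbr (-0.02), Trim28 (-0.07) and Uhrf1 (-0.10). The heterochromatin median was -0.08 after median centring and -0.04 without XY male 3. In the nuclear lamina list 0 of 12 genes were higher and 2 lower, Lmnb1 (-0.47) and the envelope bridge gene Sun1 (-0.06), with a median of -0.01. The lamin genes Lmnb2 and Lmna lay at 0.02 and 0.03.

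Of 27 splicing factors and CLK kinases that phosphorylate them, 6 were lower and 1 was higher without overlap, with a median of -0.07. Among all autosomal genes, 7.42% were lower and 4.19% higher without overlap. The lower members included Arglu1 (-0.67), Luc7l3 (-0.19), Clk4 (-0.19) and Prpf4b (-0.17), and the higher one was Srrm2, a scaffold of the active spliceosome, at 0.74. The most abundant members, Ddx5 (-0.04), Srsf5 (-0.07) and Srsf1 (-0.07), were close to the median. The summed level of the list was -0.01, -0.05 and -0.04 around its mean in XX males 1 to 3 and 0.04, 0.00 and 0.06 in XY males 1 to 3. XX male 1 and XY male 2 lay next to each other, and the groups barely separated.

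Of 24 genes of G2 and mitosis, 0 were higher and 3 lower without overlap, and 4 had an unadjusted limma p under 0.05, as did 494 of all 9213 autosomal genes (5.36%). Their median was -0.05, and -0.13 without XY male 1. The lower ones were the spindle checkpoint kinase gene Ttk (-0.24), the centromere motor gene Cenpe (-0.20) and Mki67 (-0.18), and the other abundant members were Top2a (-0.10) and Cdc20 (-0.05). XY male 1 lay with the XX males here: the summed level was -0.08 in XY male 1 against 0.09 and 0.12 in XY males 2 and 3, and -0.06, 0.00 and -0.06 in XX males. Of 23 S phase genes the median was -0.03, with 1 lower and 0 higher.

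Metabolic and hormone-related lists stayed near the autosomal median. Of 28 mitochondrial carriers 3 were higher and 1 lower without overlap, with a median of 0.00. The highest were Slc25a30, at 0.46 in a probe set other than the one that passed, and Slc25a27 (0.26). Of 35 oxidative phosphorylation genes 0 were higher and 2 lower (median 0.03), and of 21 ribosomal protein genes 1 was higher and 0 lower (median -0.01). For 9 androgen and sex steroid response genes, in animals that all had testes, the median was -0.02, with 1 lower and 0 higher. Of 16 glucocorticoid receptor genes and targets 2 were higher and 2 lower (median 0.02). Of 10 imprinted genes 1 was higher and 0 lower (median -0.09, and -0.02 without the filter on mean level), the higher one being Inpp5f (0.27). Of 22 FoxO targets 3 were higher and 1 lower (median -0.01): the cell cycle inhibitors Cdkn1b (0.31) and Cdkn1a (0.11) and Klf2 (0.15) were higher, and Ccng2, a cyclin gene linked to growth arrest, was lower (-0.14).

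The summed levels of immediate early, heat shock and interferon response genes overlapped between the groups. Of 17 immediate early genes 3 were higher without overlap, Junb (0.24), Klf4 (0.22) and Ier3 (0.16), with a median of 0.07 that became -0.03 without XX male 1. Of 16 heat shock chaperones 0 separated the groups (median -0.02), but the summed level ran from -0.28 in XX male 2 to 0.31 in XX male 1. Of 31 interferon response genes 1 was higher and 1, Isg20 (-0.18), lower (median 0.02).

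Of 8 B and plasma cell genes 2 were higher without overlap, the receptor subunit Cd79b (0.40) and the factor Spib (0.17), and the median was 0.19. The summed B cell level was 0.33, -0.06 and 0.05 in XX males 1 to 3 and -0.09, -0.15 and -0.09 in XY males 1 to 3, with XX male 1 the highest and XX male 2 close to XY males 1 and 3. The B cell genes Ighm, Jchain and Cd79a differed by 0.20, 0.32 and 0.01. Of 19 genes of dendritic cells and macrophages the complement gene C1qa was higher without overlap (0.31), with a median of 0.08 and summed levels of -0.06 to 0.15 in XX males and -0.08 to 0.00 in XY males. Of 7 fat genes the lipase gene Lpl was higher without overlap (0.36) and the median was 0.20, with XX male 2 highest (0.65) and XX male 1 lowest (-0.39). Of 6 neutrophil genes 0 separated the groups (median -0.17, summed levels -0.61 to 0.46 in XX males and -0.46 to 0.52 in XY males). Of 18 cortical epithelium genes 1 was higher, the Notch ligand Dll4 (0.19), and 2 were lower, Pax1 (-0.22) and Tbata (-0.16), with a median of -0.02. Muscle, red cell, parathyroid and thyroid, and lymph node lists had 2 tested genes each. The part of any of these cell types in the 8 called genes was not tested.

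**Figure D4:**
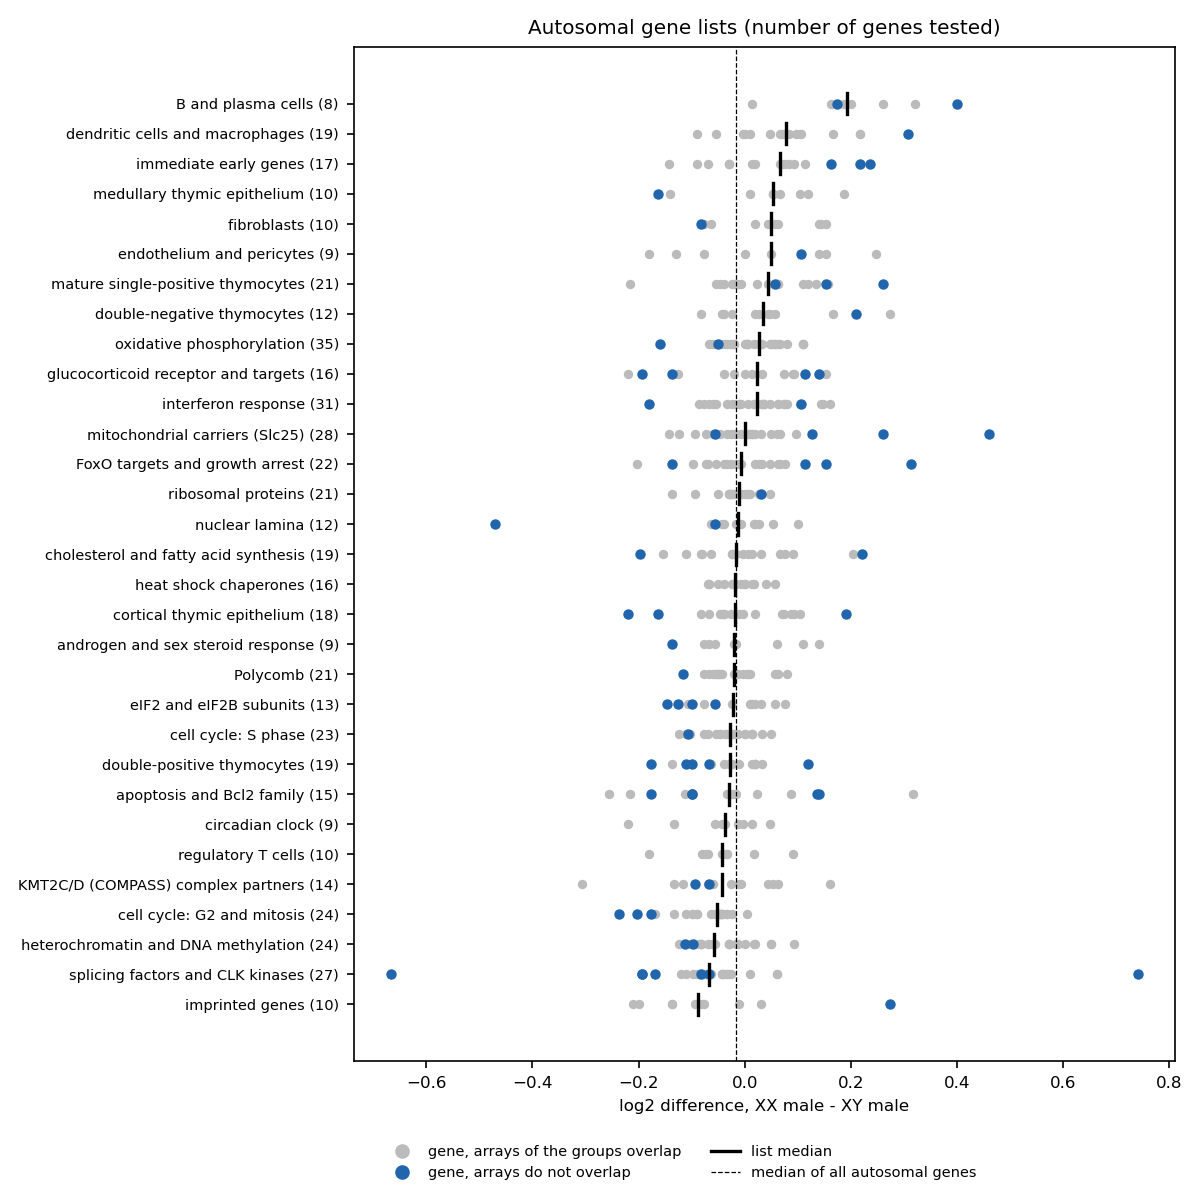
Log2 difference, XX male minus XY male, of every tested gene in the autosomal lists with 8 or more tested genes (number in brackets). Points are genes, blue where the arrays of the groups do not overlap, black bars list medians and the dashed line the median of all autosomal genes. The medians run from -0.09 for imprinted genes to 0.19 for B and plasma cells.

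By chromosome, the medians of the 19 autosomes lay between -0.02 and -0.01. The 8 called genes lay on 8 different autosomes. Besides the named genes, 5 probe sets without a single gene name passed. Of these 1426438_at and 1452077_at were lower in XX males, at -6.70 and -5.58. They averaged 2.04 and 2.37 in XX males against 8.73 and 7.95 in XY males, and differed by -6.63 and -5.42 in females. The Y-linked Eif2s3y differed by -5.91 in males and -5.66 in females. In XX males 1446208_at, 1442641_at and 1441612_at were higher, at 0.55, 0.79 and 0.82, and in females they differed by -0.26, -0.44 and -0.43. With 1 array left out, 1446208_at passed in 12 of 12 fits. By contrast 1442641_at passed in 4 of 12, those without XX male 1, XY male 2, XY female 2 or XY female 3. In turn 1441612_at passed in 3 of 12, without XY male 2, XY female 2 or XY female 3, and the limma adjusted p of both reached 0.273.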

How the data were processed

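Thymus RNA had been hybridized to 12 one-colour Affymetrix arrays, 3 for each of 4 groups. The authors deposited log2 values, which the submitters' processing notes credit to RMA (version and settings not given in the sources used here). RMA normalizes all arrays to 1 distribution, so a shift shared by most genes would not show. Of 45101 probe sets 64 controls were left out. GEO's platform annotation gave 34945 a single gene, 932 several and 9160 none, and 34741 matched RefSeq genes of GRCm38.p6 by Entrez ID, which gave the chromosome.

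The 4 group means were fitted on all 12 arrays with limma 3.58.1 in R 4.3.3 (8 residual and 3.76 prior degrees of freedom) for the 17903 probe sets with a mean of at least 5 over the 6 male arrays. Precision is limited by the number of arrays. The contrasts were XX minus XY males and its difference from XX minus XY females, with Benjamini-Hochberg adjustment. Lists were described at the probe set with the highest mean per gene and not tested. A list's summed level is the mean over its genes, centred on the 6 male arrays. The groups, the gene lists and the tests were chosen with earlier results of these data known.

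Genes named were the autosomal ones past the threshold, the 10 with the smallest p and the 5 with the largest difference in each direction, the 3 on either side of the threshold, sex-linked list members and, per list, abundant members. List members named for not overlapping were chosen after their values were seen. In simulations 200 of 17903 probe sets changed, with noise drawn independently for each probe set and array. The male comparison recovered 18%, 88% and 100% at differences of 0.3, 0.5 and 1. Of its calls 3 of 39, 7 of 183 and 15 of 215 were false. The simulated arrays had no deviations shared between probe sets, so these shares may not hold for the real arrays, where single arrays moved the counts. Alternatives changed the filter, scaling, moderation, arrays in the fit, covariates, threshold and probe set choice. Figures were drawn with matplotlib 3.10.9.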

Additional observations from a re-analysis of the deposited data

Results flagged for a closer look

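For 24 of the probe sets named, the difference between XX and XY thymus in males was itself different from that in females by the limma interaction (male minus female difference, adjusted p between 0.0221 and 0.0424). The interaction contains the male difference by which most of them were named. Over all probe sets, 207 passed it, but 1 when the actin 3' minus 5' difference was added to the model, and 0 without XX female 1, XX male 2, XX male 3 or XY male 3. Because the actin difference itself followed the groups, the model with it cannot tell RNA quality from the interaction. Of the called autosomal genes, Slc25a30 was at 0.98, Trio at 0.74, Plpp3 at 0.72, Nlk at 0.70, Cd28 at 0.69, Palld at 0.66, H2-T24 at 0.55 and Atp8a1 at 0.46. Among autosomal genes that did not pass in males, Pdpk1 was at 2.39, Sox4 at 1.98, Maco1 at 1.96, Scfd1 at 1.54, Zbtb20 at 0.98 and Cd44 at 0.68. On the other side lay Arglu1 at -1.35, Taf15 at -1.30, Lmnb1 at -0.94, Swi5 at -0.80, Pus3 at -0.57 and Zfyve27 at -0.45. The X-linked helicase gene Ddx3x was at 0.51. The probe sets without a gene name 1441612_at, 1442641_at and 1446208_at were at 1.25, 1.23 and 0.80.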

How the results depend on the processing

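Of the 22 probe sets that passed between XX and XY males, 8 autosomal, and of 207 for the interaction, the counts moved by over 1.5 times as follows. The autosomal count was 3 without the filter, 3 after median centring, 3 at a difference of at least 0.5 and 2 with autosomal probe sets alone (2 in all). At a mean of at least 6 there were 14 in all. With an intensity trend and robust moderation 44 passed, 25 autosomal. With array weights 483 passed, 330 autosomal, and 1205 for the interaction. With only the 6 male arrays 64 passed, 25 autosomal. Of the 8 called genes, only Slc25a30, Trio and Palld were among these. With 1 probe set per gene 7 passed, 3 autosomal, and 13 for the interaction. At an adjusted p under 0.1 the counts were 67, 40 and 439. With the actin covariate 1 passed the interaction. Leaving out 1 array gave 11 to 197 in all, 0 to 115 autosomal and 0 to 397 for the interaction, with the arrays named in the report. The cause was not tested. Fewer probe sets were tested with 1 per gene or with autosomal ones alone. With autosomal ones alone, the adjustment also left out the sex-linked probe sets and those without a known chromosome.

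Whether the shared replicate numbers pair the samples was not tested. Deviations of same-numbered XX and XY males correlated weakly, at 0.113, 0.167 and -0.013. XX males 1 and 2 each correlated best with their own number. Their other values were -0.147 and 0.039 for XX male 1, and -0.144 and -0.031 for XX male 2. With the replicate number as a block 115 passed, 74 autosomal, and 355 for the interaction, and in the 6 male arrays alone 32 and 10. XX male 3 did not correlate best with its own number.

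Of 1205 recomputed values of named probe sets 0 changed direction, 117 lost the threshold and 67 gained it. Of 410 recomputed list medians 21 moved by more than the spread between arrays. Another scaling moved the median of the autosomal genes from -0.02 to at most -0.03.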
